A study of Mus musculus with 4 samples.

Results

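The kinesin gene Kif26b, the integrin gene Itga8 and 7 genes linked to them in cell adhesion were followed. Embryonic mouse kidneys with and without Sall1 were compared. The members are Kif26b, its myosin partners Myh9 and Myh10, the integrin subunits Itga8 and Itgb1, the integrin ligand Npnt (nephronectin), and the Fraser complex genes Fras1, Frem1 and Frem2. They were taken as every non-control probe whose RefSeq accession is a transcript of 1 of these genes, which gave 11 probes for 9 genes out of 15088 named genes tested. All 11 probes were well above background on all 4 arrays, and Itgb1 and Npnt had 2 probes each.

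Total RNA was hybridised to 4 one-colour Agilent arrays, 2 per group, from kidneys of mice with a mixed 129 and C57BL/6 background. Tamoxifen was given at E12.5 and kidneys were taken at E13.5, 24 hours later, in both groups. The knockout group is labelled Sall1 knockout and its sample titles name CreER, the tamoxifen-activated Cre recombinase, whereas the titles of the control group name flox. An effect of CreER and the loss of Sall1 therefore cannot be told apart. The labels do not state if a sample was 1 embryo or a pool, nor in which cells CreER was active, and p-values cover only the spread between these samples, which may be technical.

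The Sall1 protein is a zinc finger regulator of transcription in the metanephric mesenchyme, and Kif26b has been reported as one of its targets. Kif26b is a kinesin-like protein that binds nonmuscle myosin and holds mesenchymal cells together around the ureteric bud. Integrin alpha8 pairs with integrin beta1 on the mesenchyme and binds nephronectin in the basement membrane of the bud, where the Fraser proteins help to anchor it. This contact supports expression of Gdnf, the growth factor that draws the bud into the mesenchyme and makes it branch.

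The targeted gene was lower in both knockout arrays. Sall1, measured by 1 probe, gave log2 signals of 1.79 and 1.81 for the controls against 1.03 and 1.07 for the knockouts, each signal divided by the 75th percentile of its array. The knockout minus control difference was -0.75 ± 0.056 on the log2 scale (SE, n = 2 per group), and the sources used here do not say if this probe lies within the deletion. Between 60.6% and 64.2% of spots per array were well above background and 0 were saturated. The number of arrays, 4, limits the precision. With limma's default variance prior, the share of all 25081 genes and unnamed sequences called at an adjusted p under 0.05 was 0%, and the smallest adjusted p was 0.0724. At an unadjusted p under 0.05, 1488 (5.93%) were lower and 1699 (6.77%) higher.

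Of the members, Kif26b and Itga8 showed the largest differences, both lower in the knockout kidneys and by nearly the same amount. Kif26b was 1.27-fold lower and Itga8 1.26-fold lower, while none of the other 7 members differed by more than 0.22 on the log2 scale. Both genes had an unadjusted p under 0.05 in the lower direction, where 5.93% of all genes tested did, and 0 of the 9 members passed over all genes tested. When limma's variance prior was allowed to follow the signal and resist outliers, both passed and were lower, whereas that prior called 0.654% of all genes lower and 0.546% higher. In bulk kidney RNA, fewer cells of a type and less RNA per cell cannot be told apart.

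The promoters of these 2 genes are shown because they were the members with the largest differences. RefSeq windows of assembly GRCm38.p6 were matched by symbol for 8 of the 9 members, all but Fras1, and the 250 bases before the annotated start are printed 5′ to 3′ on the strand of the gene. Capitals mark a match on either strand to GGGCGG, known as the GC box, or to CCAAT.
Kif26b, chr1:178528875-178529124, plus strand: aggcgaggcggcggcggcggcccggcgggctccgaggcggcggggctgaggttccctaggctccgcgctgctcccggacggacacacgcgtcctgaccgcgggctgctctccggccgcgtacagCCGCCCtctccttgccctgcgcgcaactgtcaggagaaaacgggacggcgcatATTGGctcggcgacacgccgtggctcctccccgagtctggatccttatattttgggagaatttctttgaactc
Itga8, chr2:12301945-12302194, minus strand: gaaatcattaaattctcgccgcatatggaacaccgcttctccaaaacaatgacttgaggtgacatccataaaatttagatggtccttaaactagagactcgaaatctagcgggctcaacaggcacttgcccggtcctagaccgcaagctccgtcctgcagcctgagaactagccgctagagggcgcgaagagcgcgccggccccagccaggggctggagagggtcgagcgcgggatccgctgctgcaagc

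The Kif26b window is the more CpG-rich, with 32 CpG pairs and a GC content of 68.4%. That of Itga8 holds 18 CpG pairs at a GC content of 56.4%, and the median of all 32851 windows is 6 CpG pairs and 52.4%. Kif26b has 1 match to each motif, both on the opposite strand, and Itga8 has neither. Of all windows, 32.7% hold GGGCGG and 33.8% hold the other motif. Neither window holds TATAAA, the TATA box, present in 12.4% of windows, or TCAGGTT, the start of the MEF3 site, present in 3.49%, both searched on either strand. These matches describe the letters in the windows, and binding was not measured here.

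Kif26b gave processed signals of 1410 and 1284 for the controls against 994 and 961 for the knockouts. On the log2 scale, after division by the array's 75th percentile, these are 1.24 and 1.23 against 0.90 and 0.88. The replicates of a group lay close together, 0.011 apart in the controls and 0.013 apart in the knockouts, and both knockout values were below both control values. This put the difference at -0.34 ± 0.054 on the log2 scale (SE, n = 2 per group), with a 95% interval from -0.50 to -0.19. In limma the unadjusted p was 0.00380, smaller for 1.59% of all genes tested, and the adjusted p was 0.236, or 0.0370 with the prior that follows the signal.

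Itga8, the integrin subunit of the metanephric mesenchyme, gave processed signals of 2820 and 2560 for the controls against 1945 and 1979 for the knockouts. The log2 signals were 2.24 and 2.22 in the controls against 1.87 and 1.93 in the knockouts, again without overlap. The difference came to -0.34 ± 0.058 on the log2 scale (SE, n = 2 per group), with a 95% interval from -0.50 to -0.17. In limma its adjusted p was 0.246, and 0.0327 with the prior that follows the signal. Of all genes tested, 4.08% were lower by at least as much as Itga8.

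**Figure D1:**
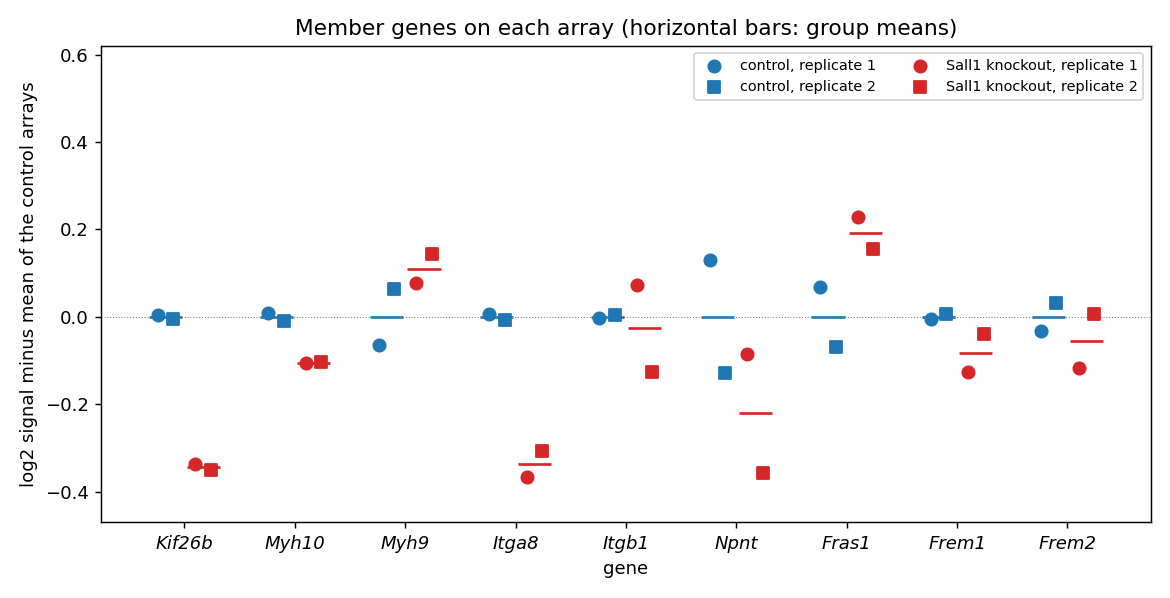
Log2 signal of the 9 member genes on each array, minus the mean of the 2 control arrays, with control arrays in blue, Sall1 knockout arrays in red and bars at the group means. The knockout points of Kif26b and Itga8 lie well below the controls, those of Fras1 and Myh9 lie above them, and the groups of Itgb1, Npnt and Frem2 overlap.

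The integrin subunit that pairs with alpha8 showed no such separation of the groups. Itgb1 encodes the beta1 chain shared by many integrins, and its brighter probe gave log2 signals of 1.71 and 1.71 for the controls against 1.78 and 1.58 for the knockouts. The knockout values lay on either side of the controls, and the log2 difference was -0.027 ± 0.091 (SE), with a 95% interval from -0.28 to 0.23. The other Itgb1 probe gave -0.097 ± 0.13 (SE), also with overlap. A log2 ratio within an array is not altered by a constant factor per array. That of Itga8 to the brighter Itgb1 probe was 0.53 and 0.51 in the controls and 0.081 and 0.34 in the knockouts. This ratio was thus lower in both knockout arrays, by a mean of 0.31 on the log2 scale, without a test. The other Itgb1 probe had log2 signals of -0.18 and -0.46 in the controls and -0.34 and -0.50 in the knockouts. With that probe the ratio overlapped narrowly between the groups. The log2 ratio of Itga8 to the brighter Npnt probe also overlapped, with a mean difference of -0.12.

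Npnt, the matrix ligand of integrin alpha8 beta1, was dim and its arrays were spread. The brighter probe gave processed signals of 207 and 159 for the controls against 160 and 129 for the knockouts. Its log2 signals were -1.53 and -1.79 in the controls against -1.74 and -2.01 in the knockouts, so that knockout replicate 1 lay above control replicate 2. The log2 difference of -0.22 ± 0.15 (SE) was smaller than the gap between the control arrays, 0.26, and its 95% interval ran from -0.64 to 0.20. The second probe, with processed signals from 107 to 131, gave -0.045 ± 0.078 (SE). A change in Npnt was not detectable at this precision.

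The other proteins known to bind integrin alpha8 beta1 through an RGD motif were described from a list of 6, of which Spp1 was well above background on 0 of the 4 arrays. Of the 5 tested, 0 passed over all genes tested in limma and 1, Tgfb1, had an unadjusted p under 0.05, in the higher direction, where 6.77% of all genes tested did. In 4 of them both knockout values were above both controls, where 21.5% of all genes tested were, and the median log2 difference was 0.27. Tgfb1, whose latent form carries the motif, was 1.20-fold higher (0.27 ± 0.072, SE). Vtn, vitronectin, was 3.35-fold higher (1.75 ± 0.66, SE), and Egfl6, a basement membrane protein related to nephronectin, was 1.72-fold higher (0.78 ± 0.30, SE). The control arrays themselves differed widely for Vtn, at -4.40 and -2.66, and for Egfl6, at -1.80 and -2.61. Without control replicate 1 the log2 difference of Vtn was 0.87, without control replicate 2 it was 2.62, and normexp correction gave 0.98. For Egfl6 these values were 1.19, 0.38 and 0.51. Liver and gut markers were higher in the same knockout arrays, and Vtn is also made by liver. All 10 tested liver and gut markers were above both controls, with a median log2 difference of 1.52 and a summed signal, in units of each array's 75th percentile, of 13.8 to 19.7 in the control and 38.4 to 42.6 in the knockout arrays. Their part in the Vtn value was not tested.

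The 3 Fraser complex members differed little and not in one direction. Fras1, Frem1 and Frem2 encode large extracellular proteins that stabilise one another in the basement membrane. Fras1 gave log2 signals of 1.98 and 1.84 for the controls against 2.14 and 2.07 for the knockouts, above both controls, with a log2 difference of 0.19 ± 0.078 (SE, adjusted p = 0.431 in limma). Frem1 had 3.29 and 3.30 in the controls and 3.17 and 3.26 in the knockouts, below both controls by -0.083 ± 0.063 (SE). Frem2 had 2.83 and 2.90 in the controls and 2.75 and 2.87 in the knockouts, which overlap, with a difference of -0.055 ± 0.074 (SE). The 95% intervals ran from -0.029 to 0.41 for Fras1, from -0.26 to 0.095 for Frem1 and from -0.26 to 0.15 for Frem2. Within each array, the log2 ratio of Fras1 to Frem1 was -1.32 and -1.46 in the controls and -1.04 and -1.19 in the knockouts, higher in both knockout arrays by a mean of 0.28.

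Of 3 further genes tied to that complex, 0 passed over all genes tested in limma. Frem3, a paralogue of Frem1 and Frem2, was dim and entered the test through the knockout arrays, since it was well above background on only 1 of the 2 control arrays. Its log2 difference was 1.03 ± 0.29 (SE), and its second probe, also dim, gave 1.01 ± 0.28 (SE). The difference of the gene became 0.35 with normexp background correction and ran from 0.63 to 1.06 with 1 array left out, so its size is not settled here. Vwa2, a basement membrane protein that associates with Fras1, differed by 0.13 ± 0.075 (SE). Grip1, the scaffold that carries Fraser proteins to the cell surface, differed by -0.044 ± 0.14 (SE), with overlapping groups.

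The nonmuscle myosin II heavy chains, the motor partners of Kif26b, lay on opposite sides of the controls. Myh10 encodes myosin IIB and gave log2 signals of 3.33 and 3.32 for the controls against 3.22 and 3.22 for the knockouts. Myh9 encodes myosin IIA and had 4.71 and 4.84 in the controls and 4.85 and 4.92 in the knockouts. The log2 differences were -0.10 ± 0.054 (SE) for Myh10 and 0.11 ± 0.076 (SE) for Myh9, with 95% intervals from -0.26 to 0.050 and from -0.10 to 0.33. For Myh9 the control arrays differed from each other by 0.13, more than the groups did, and its groups overlapped under normexp background correction and under median centring. The log2 ratio of Myh9 to Myh10 within an array was 1.37 and 1.52 in the controls and 1.63 and 1.69 in the knockouts, higher in both knockout arrays by a mean of 0.21. The log2 ratio of Kif26b to Myh10 was lower in both knockout arrays by a mean of 0.24, whereas that of Kif26b to Itga8 overlapped between the groups, with a mean difference of -0.0070.

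Among the 11 genes that build or regulate nonmuscle myosin II, 0 passed over all genes tested in limma, an unadjusted p under 0.05 was reached by 2 in the higher and 0 in the lower direction, beside 6.77% and 5.93% of all genes tested, and the median log2 difference was -0.0045. Mylk, myosin light chain kinase, was 1.48-fold higher (0.57 ± 0.15, SE), and Myh14, the heavy chain of myosin IIC, was 1.18-fold higher (0.24 ± 0.073, SE). Rock1, a kinase that activates myosin, differed by -0.20 ± 0.10 (SE), and its second probe gave -0.11 ± 0.069 (SE). With 1 array left out the Rock1 difference ran from -0.32 to -0.087. Of 5 smooth muscle markers tested, 0 passed over all genes tested in limma, and 3 were above both controls in both knockout arrays, where 21.5% of all genes tested were. All 5 tested markers together had a summed signal of 6.30 to 9.23 in the control and 10.4 to 13.6 in the knockout arrays. Of these markers Des was below both controls, and Myh11, the defining smooth muscle myosin, was well above background on 0 of the 4 arrays. The part of smooth muscle cells in the Mylk value was not tested.

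**Figure D2:**
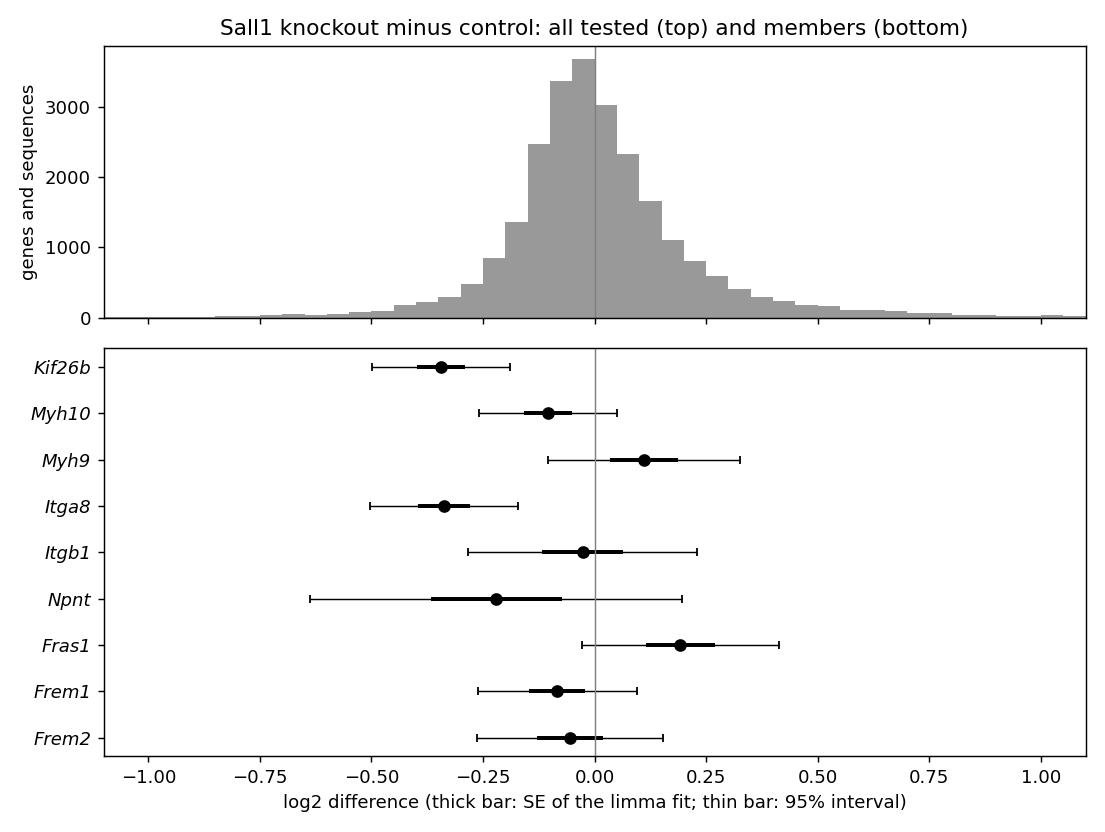
Histogram of the log2 difference, Sall1 knockout minus control, over all 25081 genes and sequences tested, of which 232 lie outside the range drawn, above the same difference for each member with its SE (thick) and 95% interval (thin). Kif26b and Itga8, both at -0.34, have intervals that exclude 0, and the intervals of the other 7 members include it.

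Among the members together, 7 were lower and 2 higher, with a median log2 difference of -0.083 beside -0.013 over all genes tested. In 4 members both knockout values were below both controls (Kif26b, Itga8, Myh10 and Frem1) and in 2 both were above (Fras1 and Myh9). Over all genes tested these shares were 27.7% for lower and 21.5% for higher. With 2 arrays per group the smallest two-sided p an exact permutation test can give is 0.333, so no such test was run on single genes.

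Kif26b was then set against its relatives and reported partners. Kinesin genes, a family looked up after the member values were known, were taken as symbols made of Kif and a number. Of the 33 such genes tested, Kif26b had the smallest unadjusted p and the second lowest difference after Kif19a, whose groups overlapped. The median over these 33 genes was -0.019. Kif26a, the closest paralogue of Kif26b, differed in the other direction: its brighter probe was 1.33-fold higher (0.41 ± 0.10, SE), and a dim second probe gave -0.47 ± 0.25 (SE), so that the mean over both was -0.031.

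Of 10 genes made up of that paralogue and of proteins reported upstream of Kif26b or bound to it, 0 passed over all genes tested in limma, an unadjusted p under 0.05 was reached by 1 in each direction, near the shares of all genes tested, 5.93% lower and 6.77% higher, and the median log2 difference was 0.011. Cdh2, N-cadherin, the adhesion protein of condensing mesenchyme, differed by -0.17 ± 0.056 (SE), while its other probe gave -0.079 ± 0.071 (SE). Nedd4, a ubiquitin ligase that acts on Kif26b protein, differed by -0.12 ± 0.058 (SE). Among the others were Wnt5a, its receptors Ror1 and Ror2, and the Dvl genes that signal from them to Kif26b, and none of these had an unadjusted p under 0.05.

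Integrin adhesions were described by 10 cytoplasmic proteins that link integrins to actin. In limma 0 of them passed over all genes tested, the median log2 difference was 0.047, and 5 were above and 1 below both controls in both knockout arrays, where 21.5% and 27.7% of all genes tested were. The gene below was Lims1, or PINCH1, which joins integrin-linked kinase, at -0.27 ± 0.062 (SE), with a second probe at -0.044 ± 0.080 (SE). Pxn, paxillin, differed by 0.31 ± 0.11 (SE) and Zyx, zyxin, by 0.19 ± 0.072 (SE). Integrin alpha subunits, also looked up after the member values were known, were taken as those named by a number or the letter v or e. Among the 12 such subunits tested, Itga8 had the second lowest difference and the second smallest unadjusted p. Itgav, the alpha subunit of another group of RGD-binding integrins, was first in both, at -0.43 ± 0.064 (SE).

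In the Gdnf axis, on which the contact between integrin alpha8 and nephronectin acts, most genes were lower in both knockout arrays. Of its 10 genes, including Sall1, 0 passed over all genes tested in limma, an unadjusted p under 0.05 was reached by 7 in the lower and 0 in the higher direction, beside 5.93% and 6.77% of all genes tested, and the median log2 difference was -0.34. Gdnf itself gave log2 signals of 2.99 and 3.02 for the controls against 2.21 and 2.43 for the knockouts, 1.61-fold lower (-0.68 ± 0.098, SE). Its receptor Ret, in the ureteric bud, was 1.21-fold lower (-0.28 ± 0.058, SE), with 0.81 and 0.84 in the controls and 0.52 and 0.57 in the knockouts. With the prior that follows the signal, 2 of the 10 passed, Sall1 and Gdnf, both lower, beside 0.654% of all genes tested. Among the upstream regulators, the mesenchymal Hox genes differed by -0.53 for Hoxa11 and -0.54 for Hoxc11, and Eya1 by 0.062 ± 0.071 (SE).

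Markers of nephron progenitors, the cells that express Itga8 and Gdnf, were mostly lower in the knockout arrays. Of 10 markers, among them Gdnf and Eya1 of the list above, 7 were below both controls in both knockout arrays and 0 above, beside 27.7% and 21.5% of all genes tested, with a median log2 difference of -0.54. In limma 0 of the 10 passed over all genes tested. With the prior that follows the signal, which called 0.654% of all genes tested lower, 6 of these markers passed and were lower. Their summed signal was 135 to 142 in the control and 94.9 to 102 in the knockout arrays, in units of each array's 75th percentile. Ureteric bud markers, 12 in all, had a median of 0.034 and a summed signal of 74.6 to 78.5 and 81.1 to 83.3. Stroma markers had a median of 0.23 over 10 genes and a summed signal of 113 to 135 and 140 to 152. They did not move together: 4 were above both controls, 2 below (Foxd1 and Pdgfra) and 4 overlapped, beside 21.5% above and 27.7% below of all genes tested. The medians were -0.098 for nascent nephron, 0.24 for endothelium, 0.51 for leukocyte, 0.21 for erythroid and 1.28 for skeletal muscle markers. Summed skeletal muscle signals were 21.6 to 50.7 in the control and 60.7 to 88.4 in the knockout arrays. The part of a change in cell numbers in the Kif26b and Itga8 values was not tested.

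**Figure D3:**
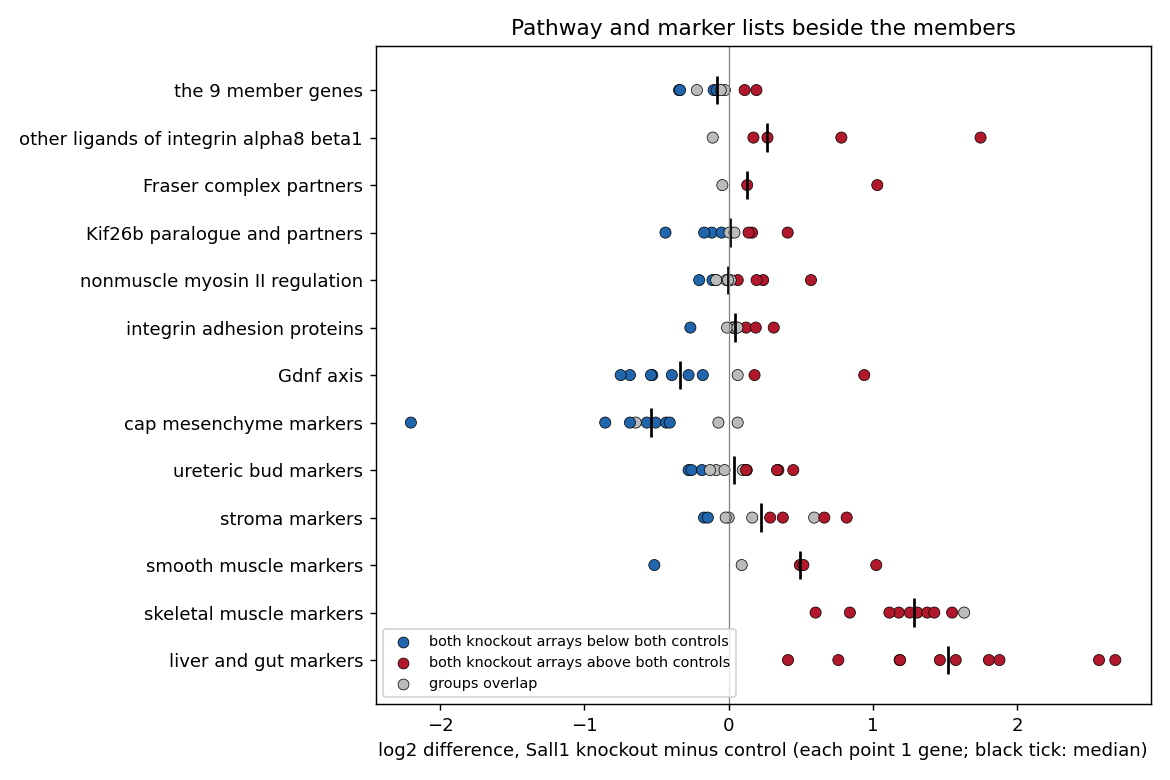
Log2 difference, Sall1 knockout minus control, of each tested gene in the pathway and marker lists, with 1 point per gene, a tick at the median and colours for whether both knockout arrays lay below (blue) or above (red) both controls. The Gdnf axis and the cap mesenchyme markers, with medians of -0.34 and -0.54, lie mostly to the left, and the skeletal muscle and liver and gut markers, with medians of 1.28 and 1.52, lie to the right.

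The genes whose pattern over the 4 arrays was nearest to that of Kif26b were Dst, Lifr and Arid3b, among 14613 named genes compared. Likeness was the Euclidean distance between log2 signals centred on each gene's own mean, which was 0.0093 for Dst, a cytoskeletal linker, 0.011 for Lifr, the receptor of leukaemia inhibitory factor, and 0.029 for Arid3b. Itga8 ranked number 16 by this measure, at 0.052. For Itga8 the nearest were Magea1 (0.019), Sypl2 (0.027) and Klf15 (0.028). These 3 were dim, with log2 signals for Magea1 from -4.14 to -3.76, and Kif26b ranked number 23. With normexp correction the log2 difference of Magea1 went from -0.35 to -0.041, that of Klf15 from -0.33 to -0.15 and that of Sypl2 from -0.32 to 0.16, and Sypl2 was not well above background on all 4 arrays. The difference of Lifr went from -0.35 to -0.15 with the mean over its probes. With 4 arrays many genes share a pattern, and the distances are a description.

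**Figure D4:**
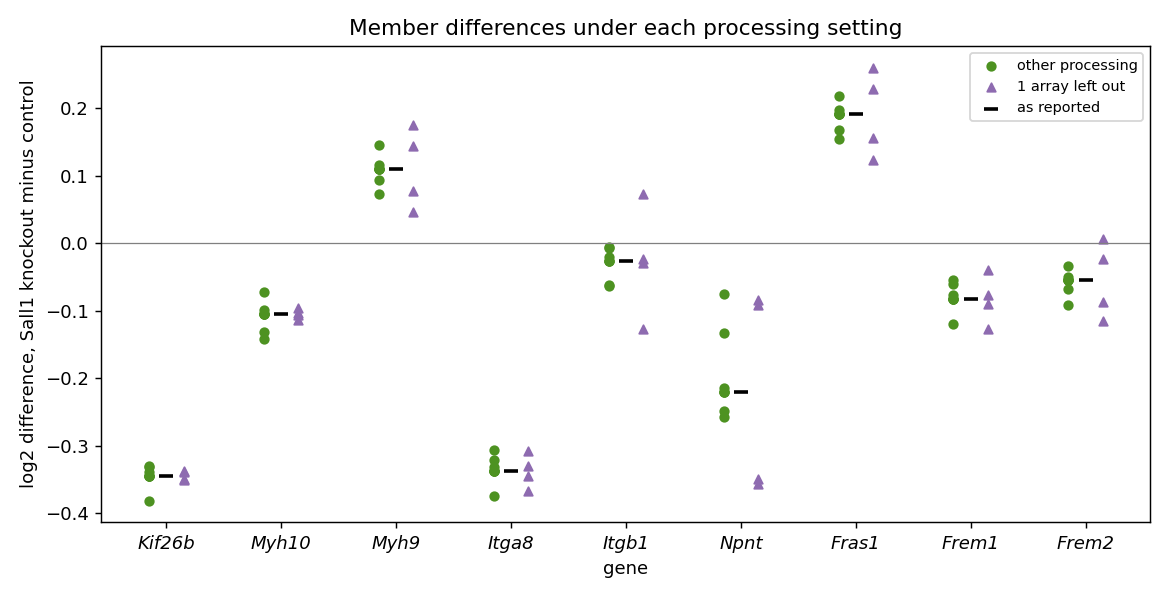
Log2 difference, Sall1 knockout minus control, of each member as reported (bars), under other processing (green circles) and with 1 array left out (violet triangles). Kif26b stays between -0.38 and -0.33 and Itga8 between -0.37 and -0.31, while Itgb1 and Frem2 cross 0 when 1 knockout array is left out.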

How the data were processed

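The labels' genotype gave the group of each sample, and replicate numbers follow the accession order. The members and gene lists were chosen with earlier results of these data known. The deposited processed signal is an intensity that Agilent Feature Extraction 10.7.3.1 had background-corrected within each array, for array design 028005 (build mm9), per the file headers. Signals were divided by the array's 75th percentile of non-control spots and set to log2. Spots marked as outliers were left out, spots of a probe averaged, and a probe was kept where a share of at least 0.5 of its spots was well above background on both arrays of a group, in 1 group or more. Symbols came from RefSeq accessions through a table of assembly GRCm38.p6, which named 26413 of 55681 probes. Each gene was represented by its brightest probe, and 25081 genes and unnamed sequences entered a two-sided fit by lmFit and eBayes (limma 3.58.1, R 4.3.3) with Benjamini-Hochberg adjustment, tested on simulated data. Control replicate 1 is deposited with 3 significant digits. The series' deposited value table gives this intensity too: 100% of values of probes with 1 spot agreed within 1%. Named were all members, Sall1, the 3 genes of smallest unadjusted p in each pathway list and the 3 genes nearest to Kif26b and Itga8, with RIKEN, Gm and LOC names passed over. Other list genes, and Kif19a and Itgav, were named after their values were seen. Alternatives were normexp correction (offset 50, on the median signals), quantile normalization, median centring, no filter, probes above background on all 4 arrays, the mean over probes, a trended robust prior, the value table, an adjusted p under 0.1, and each array left out.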

Additional observations from a re-analysis of the deposited data

How the results depend on the processing

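Kif26b and Itga8 kept their direction under all 12 alternatives, and passed over all genes tested only with the trended robust prior. Over the processing alternatives the adjusted p ran from 0.0370 to 0.441 for Kif26b and from 0.0327 to 0.457 for Itga8, and with 1 array left out from 0.405 to 0.561 and from 0.430 to 0.551. The count of genes called, 0 as reported, was 41 with normexp correction, 301 with the trended robust prior, which called 2 members, and 21 at an adjusted p under 0.1. Genes without overlap numbered 12346, and 18767 to 19480 with 1 array left out, where 1 array stands for a group. Members above both controls numbered 1 with normexp correction and 1 with median centring. The members' median was -0.12 with median centring. With 1 array left out, Itgb1 ran from -0.13 to 0.073, Frem2 from -0.12 to 0.0056, Grip1 from -0.17 to 0.079 and Sypl2 from -0.34 to 0.071, and Npnt from -0.36 to -0.084. The mean over probes was -0.031 for Kif26a and 0.054 for Sypl2, which was 0.16 with normexp correction. The cause of these changes was not tested. Npnt was -0.075 with normexp correction. No paired analysis was possible because the labels give the groups no shared replicate numbers. All 4 arrays lay on 1 slide and were scanned together, so no batch could be compared. Npnt, at processed signals of 107 to 207, was the dimmest member, and its standard error the largest.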
